A study of Mus musculus with 6 samples.

Results

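The 50 genes described here encode proteins of the nucleolus that make ribosomes, and they were compared between mouse T cells given the supernatant of macrophages activated with neurofilament light chain (NFL, written NF-L in the labels) and T cells given the supernatant of untreated macrophages. They were chosen by symbol, with earlier results of these data known. All 50 were found among the 55401 genes of the read count table. All were also kept among the 14082 genes that had enough reads to be tested. Of these 50 genes, 22 rose with the NFL supernatant, by 6.90% to 14.9%, and 0 fell, beside 3.47% of all genes tested that rose. The rises included nucleophosmin, nucleolin and Nop10, a protein of the small nucleolar RNA (snoRNA) particles, whereas the polymerase I factor Ubtf and the methyltransferase fibrillarin did not pass the test in either direction.

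The nucleolus is the part of the nucleus where ribosomes begin. RNA polymerase I transcribes a long precursor RNA from the ribosomal DNA repeats, snoRNA-protein particles guide the chemical marking and the cutting of that precursor, and a succession of assembly factors folds it with ribosomal proteins into the small and the large subunit. T cells are known to expand this machinery when they are activated and begin to grow and divide, and the transcription factor Myc is a known driver of many of its genes.

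In all, 6 libraries were analysed, 3 per group, and each library is named here by its group and replicate number, with values listed in the order of replicates 1, 2 and 3. According to the design text, T cells were taken from mouse spleen with beads against CD8a, and macrophages were raised with 50 ng/mL M-CSF over 7 days from spleen cells that had been selected for CD11b. In the NFL group the macrophages were then exposed for 24 h to 5 µg/mL of NFL, which was prepared from freeze-thawed sciatic nerve, and in the control group they were left untreated. In both groups the filtered supernatant made up 50% of RPMI-1640 medium with 2% fetal bovine serum. Strain, age, genotype and the time the T cells spent in the supernatant are not given in the labels or the design text, and no sample is said to come from a culture or animal of its own, so that p-values measure the spread between these samples, which may be technical. A preparation from whole nerve can hold other nerve proteins beside NFL, and the control macrophages are not said to have received a sham preparation, so that NFL and such proteins cannot be told apart. The study's methods give another NFL dose for a transwell co-culture and a purchased NFL protein for tumor-bearing mice, and which preparation and dose these libraries received is not settled here.

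Total counts ran from 15843045 to 24639756 per library, and the 50 genes had between 559 and 78593 counts in a library. Levels are given as TMM-scaled CPM, counts of a gene relative to the size of its library, and levels of different genes are compared only as RPKM, which also divides by the length of the gene's exons. The cells were labelled T cells, and Thy1, a surface protein of mouse T cells, stood at 526 to 571 RPKM in the 6 libraries. Cd3e stood at 12.03 to 15.84 RPKM, but Trac, the constant region of the T-cell receptor alpha chain, stood at 1.06 to 2.67 RPKM and Cd8a, the target of the beads, at 0.880 to 1.23 RPKM, below the 5.79 to 6.86 RPKM of Cd4. A high level of Cd8a or Trac was thus not seen in these libraries. Among 8 macrophage markers, 6 were at 3 counts or fewer in every library (Lyz2, C1qa, C1qb, Csf1r, Mrc1 and Fcgr1), and the summed level of the 8 was 24.6 to 27.5 CPM in the control and 19.2 to 23.5 CPM in the NFL libraries, nearly all of it from Cd68. The B-cell markers Ms4a1 and Ighm, the natural killer cell markers Ncr1 and Klra8 and the red cell genes Hba-a1 and Hbb-bs were likewise at 3 counts or fewer in every library. The 6 B-cell markers together stood at 12.1 to 13.2 CPM in the control and 11.6 to 14.1 CPM in the NFL libraries, most of it from Pax5. The 4 natural killer markers stood at 459 to 482 and 441 to 460 CPM, most of it from Eomes, at 101 to 108 RPKM over the 6 libraries. Eomes is not particular to natural killer cells, and the study lists it among molecules tied to exhaustion of CD8+ T cells. Its level thus does not tell these kinds of cell apart. The 4 red cell markers stood at 1.32 to 1.47 and 0.988 to 1.99 CPM. The 8 T-cell markers stood at 1719 to 1817 and 1668 to 1765 CPM, most of it from Thy1, at 1575 to 1709 CPM over the 6 libraries. Cd3d, Cd3g and Cd8b1 were low, at 1.28 to 2.66, 1.85 to 2.71 and 0.586 to 1.06 RPKM. The part of cell composition in the results below was not tested, and in bulk RNA a change in the share of a kind of cell and a change in RNA per cell cannot be told apart.

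The NFL and control libraries were compared for the 50 genes with edgeR's quasi-likelihood test, fitted to all 14082 genes, and p-values were adjusted by Benjamini-Hochberg over all of them and held against 0.05. The 22 genes that rose are 44% of the 50, beside 3.47% of all genes tested that rose and 3.53% that fell. The mean of the NFL libraries was above that of the controls for 47 of the 50 genes, beside 49.6% of all genes tested. Their median log2 fold change was 0.096, beside -0.00099 over all genes tested, and the 50 values ran from -0.056 to 0.20. All 3 NFL libraries lay above all 3 control libraries for 25 of the 50 genes, beside 11.5% of all genes tested, and all 3 lay below for 0 of them, beside 11.2%. At an unadjusted p under 0.05, edgeR counted 29 of the 50 as higher, beside 9.72% of all genes tested, and 0 as lower. DESeq2 called 16 of the 50 higher, beside 2.65% of all genes, and 0 lower, and limma-voom called 21 higher, beside 3.66%, and 0 lower.

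**Figure D1:**
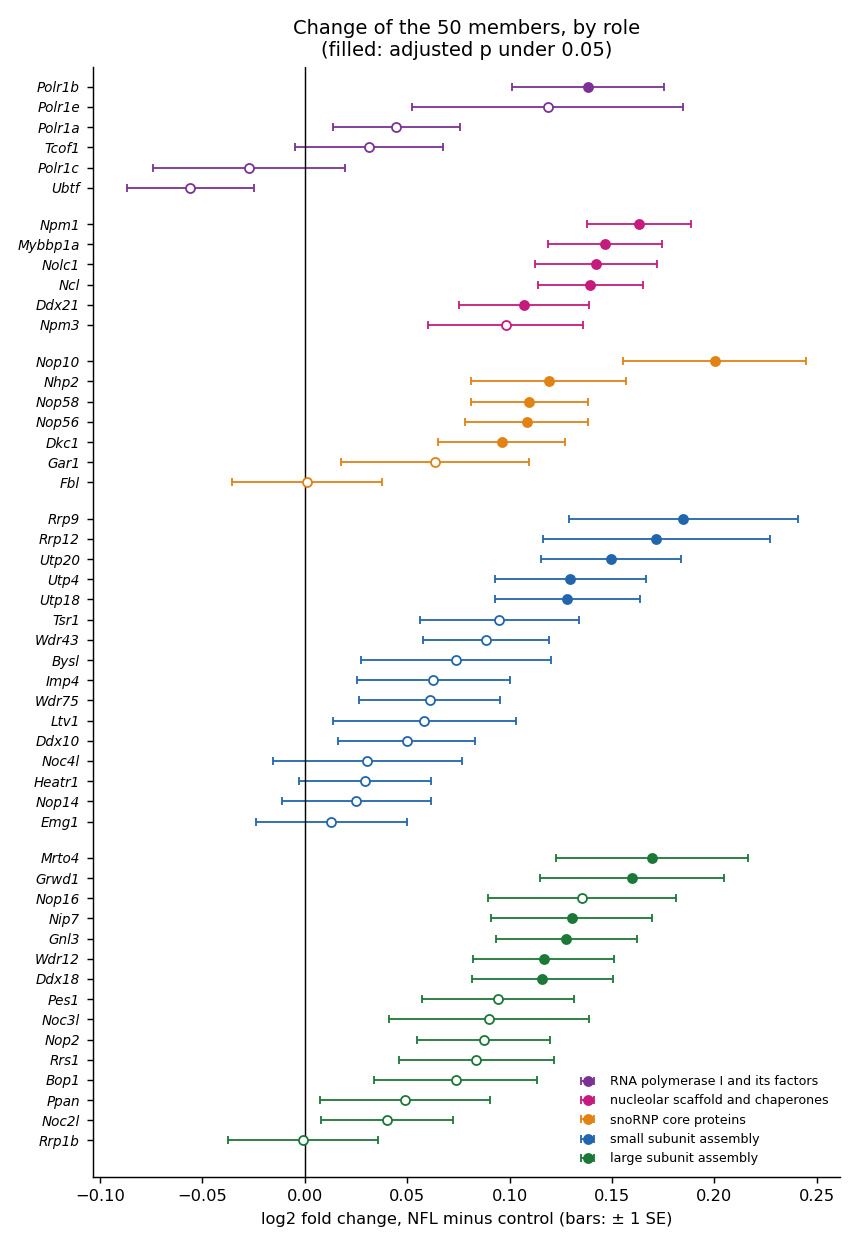
Log2 fold change of each of the 50 genes (horizontal axis, NFL minus control, bars ± 1 SE from the edgeR fit of 3 against 3 libraries), grouped by role, with filled points for an adjusted p under 0.05. The 22 filled points all lie to the right of 0, the nucleolar scaffold and chaperone genes lie between 0.098 and 0.16, and the RNA polymerase I factors spread to both sides of 0.

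Genes with many counts leaned in the same direction. The shares given here include the 50 genes themselves and the cytosolic ribosomal protein genes described below, of which 44 of 79 rose. They are thus not a background free of ribosome genes. Among the 5971 tested genes that lay within the range of mean CPM of the 50 (35.8 to 3252 CPM), 6.58% rose, 5.76% fell, 52.7% had a higher mean and 17.3% had no overlap with the NFL libraries on top. For genes of 100 to 300 CPM the share that rose was 7.97% and the median log2 fold change was 0.0074, and 28 of the 50 genes lay there, with a median of 0.086 and 10 rises. For genes of 300 to 1000 CPM the share was 17.8% and the median 0.030, against 5 rises among the 8 of the 50 genes in that range, with a median of 0.11. In the range of 30 to 100 CPM the share was 3.43% and the median -0.00072, against 5 rises among 12 with a median of 0.13. Both genes of the 50 above 1000 CPM rose, beside 27.0% of the 63 genes there, whose median was 0.056. When each library's trend with abundance was removed with offsets, a fit added after seeing the data, 17 of the 50 genes were still called higher, beside 2.99% of all genes. That trend was fitted to all genes tested, the 50 included.

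The count of rises depended on single libraries. It was 13 without control 1 (beside 2.52% of all genes called higher), 14 without control 3 (2.79%), 9 without NFL 2 (2.18%) and 7 without NFL 3 (1.74%). It was 14 when libraries were scaled by their total counts alone (2.64%), which moved the split over all genes from 489 higher and 497 lower to 372 higher and 600 lower. Offsets for GC content and length, added after seeing the data, moved that split to 580 higher and 366 lower. The count stayed at 22 but shared 19 genes with the one above, since Dkc1, Nhp2 and Utp18 were lost and Polr1a, Nop2 and Nop16 gained. DESeq2 did not call Ddx21, Nhp2, Rrp9, Rrp12, Nip7 or Ddx18, and Dkc1 and Nhp2 each passed in 6 of the 16 other fits. In none of the 16 other fits was any of the 50 genes called lower. Nucleolin (Ncl), nucleophosmin (Npm1), Nolc1, Mybbp1a and Nop10 were called higher in each of those 16 fits.

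The transcription factor Myc binds with Max to the DNA letters CACGTG, the E-box, and this motif was looked for in the promoters of the 50 genes because they are a textbook group of Myc targets. Promoters were taken from RefSeq (GRCm38.p6) as the 250 bases before and the 50 bases after a gene's start, and 44 of the 50 genes had one. CACGTG reads the same on both strands, and it was present for 11 of the 44 genes (25%), beside 8.09% of all 27025 genes with a promoter, 11.4% of those tested and 12.9% of those tested at the level of the 50. It was present for 5 of the 20 genes that rose and had a promoter (25%) and for 6 of the 24 that did not pass the test (25%), so that its share was the same in both. The 30 bases around the motif are shown for the 5 genes that rose, to let the flanking letters be compared, 5′ to 3′ on the strand of the gene, with the motif in capitals.
Grwd1 (chr7:45830740-45830769, minus strand): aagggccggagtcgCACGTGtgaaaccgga
Utp4 (chr8:106893643-106893672, plus strand): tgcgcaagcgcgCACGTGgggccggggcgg
Utp20 (chr10:88826765-88826794, minus strand): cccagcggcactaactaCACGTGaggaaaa
Mybbp1a (chr11:72441347-72441376, plus strand): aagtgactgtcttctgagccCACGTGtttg
Utp18 (chr11:93885769-93885798, minus strand): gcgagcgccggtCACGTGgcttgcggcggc
In Utp18 the motif began 20 bases before the start, and in Utp4, Grwd1, Utp20 and Mybbp1a it began 16, 35, 38 and 41 bases after it. The other 6 genes with the motif were Imp4, Nop2, Ltv1, Pes1, Tsr1 and Wdr43. A match of letters is a description of the sequence and not evidence of binding, and no binding was measured.

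The first step is the transcription of ribosomal DNA. Of 6 genes for RNA polymerase I and its factors, 1 rose, and the median log2 fold change of the 6 was 0.038. Polr1b, which encodes the second-largest subunit of the polymerase, had 137, 132 and 131 CPM in the control libraries and 145, 146 and 149.5 CPM in the NFL libraries (log2 fold change 0.14 ± 0.037 SE, edgeR adjusted p = 0.0125). The 3 NFL values lay above the 3 control values. Ubtf, the factor that binds and opens ribosomal DNA, was the gene of this role with the most counts, with 343, 338 and 331 CPM in the control libraries and 315, 338 and 319.7 CPM in the NFL libraries (log2 fold change -0.056 ± 0.031 SE, edgeR adjusted p = 0.337). Its groups overlapped, since NFL 2 lay among the controls. The log2 fold change was 0.045 for Polr1a, the largest subunit, 0.12 for Polr1e, 0.031 for Tcof1, which encodes treacle, a cofactor of ribosomal DNA transcription, and -0.027 for Polr1c, a subunit shared with RNA polymerase III. None of these 4 passed the test, and the adjusted p nearest the threshold among them was 0.335 for Polr1e in edgeR. With offsets for GC content and length, Polr1a passed it (log2 fold change 0.11, edgeR adjusted p = 0.0165). The summed level of the 6 genes was 1079 ± 11.3 CPM in the control and 1095 ± 19.3 CPM in the NFL libraries (mean ± SD, n = 3 each), a difference of 1.43%.

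The nucleolar scaffold and chaperone proteins organise the nucleolus and escort ribosomal parts within it, and 5 of their 6 genes rose. Ncl encodes nucleolin, an RNA-binding protein of the nucleolus, and it had the most counts of the 50 genes, with 3194, 2965 and 3126 CPM in the control libraries and 3304, 3459.7 and 3464 CPM in the NFL libraries (log2 fold change 0.14 ± 0.026 SE, edgeR adjusted p = 1.41e-04). Npm1 encodes nucleophosmin, a histone and ribosomal protein chaperone that gives the outer nucleolus its structure, and it had 1852, 1853 and 1953 CPM in the control libraries and 2115, 2099.6 and 2121 CPM in the NFL libraries (log2 fold change 0.16 ± 0.025 SE, edgeR adjusted p = 6.33e-06). For both genes the lowest NFL library lay above the highest control. Nolc1 encodes a chaperone that escorts snoRNA particles, and it had 310.3, 307 and 307 CPM in the control libraries and 337, 339.8 and 343 CPM in the NFL libraries (log2 fold change 0.14 ± 0.030 SE, edgeR adjusted p = 9.39e-04). Mybbp1a encodes a nucleolar protein that binds Myb and takes part in pre-ribosomal RNA processing, and it had 662, 692 and 655 CPM in the control libraries and 749, 739 and 736 CPM in the NFL libraries (log2 fold change 0.15 ± 0.028 SE, edgeR adjusted p = 2.18e-04). Neither gene had overlapping groups, and the 3 NFL values of each lay close together. Ddx21, an RNA helicase, also rose, with 431 ± 2.40 CPM in the control libraries and 464 ± 28.0 CPM in the NFL libraries (mean ± SD, n = 3 each, log2 fold change 0.11 ± 0.032 SE, edgeR adjusted p = 0.0267). Of its NFL libraries, NFL 1 lay just above the highest control. Npm3, a relative of nucleophosmin, had a log2 fold change of 0.098 with an edgeR adjusted p of 0.118 and overlapping groups. Per exon length, Npm1 stood highest of all 50 genes at a mean of 750.0 RPKM over the 6 libraries, followed by Ncl at 319 RPKM.

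In GENCODE M21 (GRCm38), the annotation whose versioned identifiers match these 4 genes, Ncl is ENSMUSG00000026234.12, chr1:86344719-86359400, minus strand, and Npm1 is ENSMUSG00000057113.13, chr11:33152287-33163206, minus strand. Nolc1 is ENSMUSG00000015176.11, chr19:46075863-46085530, plus strand, and Mybbp1a is ENSMUSG00000040463.16, chr11:72441355-72451768, plus strand. Mybbp1a shares 131 exonic bases with Spns2 on the opposite strand, a gene with 632 counts over the 6 libraries against 81107 of Mybbp1a. The 4 loci with a stretch nearly identical to Npm1 (at least 95% over at least 200 bases) held 0.655% as many counts as Npm1 itself. The submitters' processing notes name GRCm39, so the positions given here describe the annotation and not the alignment.

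The core proteins of the snoRNA particles fall into 2 families, and 5 of their 7 genes rose. Nop56 and Nop58 are the scaffold of the box C/D particles, which guide methylation of ribosomal RNA, and fibrillarin (Fbl) is their methyltransferase. Nop56 had 562, 512 and 559 CPM in the control libraries and 581, 593 and 588 CPM in the NFL libraries (log2 fold change 0.11 ± 0.030 SE, edgeR adjusted p = 0.0171). Nop58 had 744, 691 and 749 CPM in the control libraries and 774, 792 and 791 CPM in the NFL libraries (log2 fold change 0.11 ± 0.029 SE, edgeR adjusted p = 0.0102). Control 2 was the lowest library for both genes, and the groups did not overlap for either. Fbl, the enzyme of the same particle, did not pass the test, at 190.4 ± 12.4 CPM in the control libraries and 191 ± 4.75 CPM in the NFL libraries (mean ± SD, n = 3 each, log2 fold change 0.0011 ± 0.037 SE, edgeR adjusted p = 0.994), and the 95% interval of its log2 fold change ran from -0.071 to 0.073. The gene Tulp4, nearly identical to Fbl over 690 bases, had 18.8% as many counts as Fbl. These are counts of the whole gene, and how reads of the shared stretch were assigned is not given, so the level of Fbl is uncertain.

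In the box H/ACA particles, which guide pseudouridylation, 3 of the 4 genes rose. Nop10, a small protein that contacts the catalytic subunit, showed the largest log2 fold change of the 50 genes, with 77.9, 80.2 and 83.1 CPM in the control libraries and 91.9, 92.3 and 93.0 CPM in the NFL libraries (log2 fold change 0.20 ± 0.045 SE, edgeR adjusted p = 0.002). The lowest NFL library was well above the highest control, and the 3 NFL values differed by little more than 1 CPM. In the same annotation Nop10 is ENSMUSG00000027133.3, chr2:112261926-112263269, plus strand. Nhp2, another core protein, had 159.5, 147 and 151 CPM in the control libraries and 159, 165 and 174 CPM in the NFL libraries (log2 fold change 0.12 ± 0.038 SE, edgeR adjusted p = 0.0412). Its groups overlapped, since control 1 lay just above NFL 1. Nhp2 shares 44 exonic bases with Rmnd5b on the opposite strand, and neither DESeq2 nor limma-voom called it. Dkc1, which encodes dyskerin, the pseudouridine synthase, had 266 ± 5.39 CPM in the control libraries and 284 ± 0.641 CPM in the NFL libraries (mean ± SD, n = 3 each, log2 fold change 0.096 ± 0.031 SE, edgeR adjusted p = 0.0464), with no overlap between groups. Gar1 had a log2 fold change of 0.064 and an edgeR adjusted p of 0.498.

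**Figure D2:**
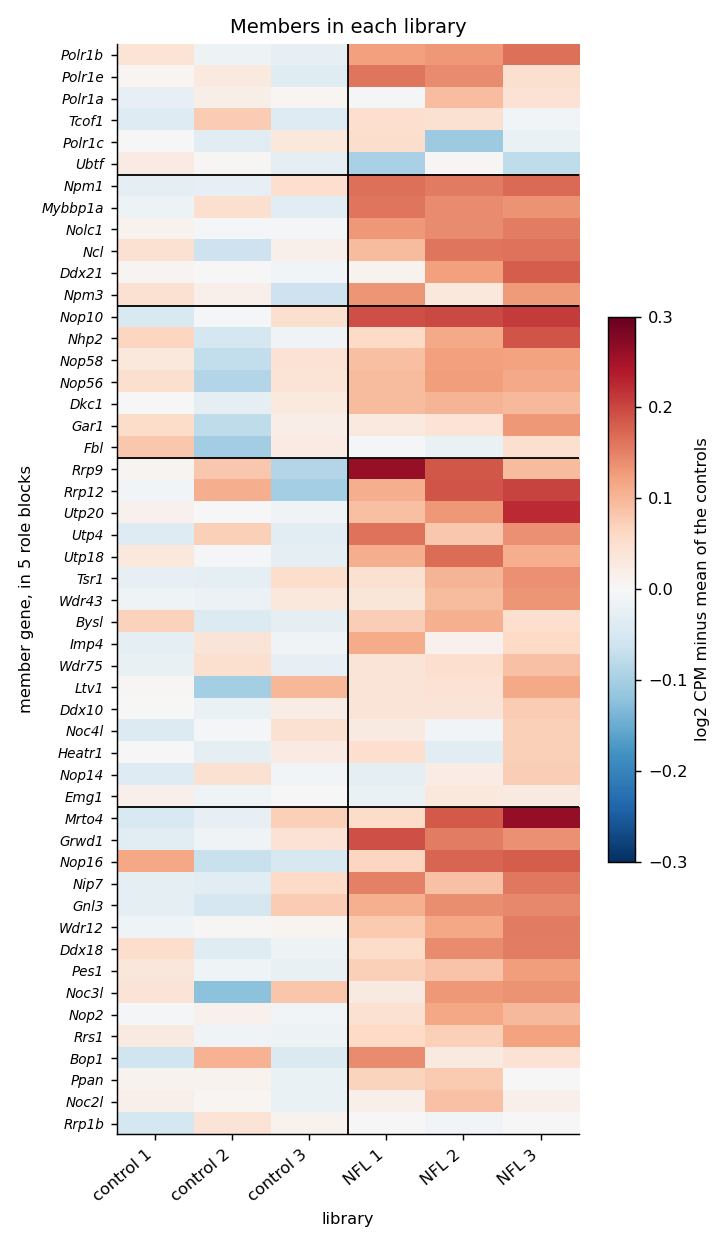
Level of each of the 50 genes (rows, in the 5 roles of the text, separated by black lines) in each of the 6 libraries (columns), as log2 CPM minus the mean of the 3 control libraries, from blue (lower) to red (higher). The NFL columns are mostly red, with medians over the 50 genes of 0.065, 0.10 and 0.12 in NFL 1, 2 and 3, against 0.0025, -0.010 and -0.0057 in controls 1, 2 and 3.

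Assembly of the small subunit is carried out by a large early particle around the U3 snoRNA and by later factors that ride with the subunit towards the cytoplasm. Of these 16 genes, 5 rose, all 16 had a higher mean with NFL, and their median log2 fold change was 0.068. Rrp9, a protein of the U3 particle, had 54.6, 57.4 and 51.1 CPM in the control libraries and 65.2, 61.8 and 58.1 CPM in the NFL libraries (log2 fold change 0.18 ± 0.056 SE, edgeR adjusted p = 0.0307). Utp4, a member of the early UtpA complex, had 149, 161 and 149.6 CPM in the control libraries and 171, 162 and 169 CPM in the NFL libraries (log2 fold change 0.13 ± 0.037 SE, edgeR adjusted p = 0.0198). Utp18, a member of the UtpB complex, had 160.2, 156 and 154 CPM in the control libraries and 169, 176 and 169 CPM in the NFL libraries (log2 fold change 0.13 ± 0.035 SE, edgeR adjusted p = 0.0158). None of the 3 had overlapping groups, although control 2 of Utp4 came within 2 CPM of NFL 2. Rrp9 shares 20 exonic bases with Parp3 on the opposite strand. Utp20, a large scaffold of the early particle, had 207, 205 and 204 CPM in the control libraries and 218, 225 and 239 CPM in the NFL libraries (log2 fold change 0.15 ± 0.034 SE, edgeR adjusted p = 0.00253). Rrp12, which is needed for export of the subunits, had 55.1, 59.8 and 51.7 CPM in the control libraries and 59.8, 63.2 and 63.8 CPM in the NFL libraries (log2 fold change 0.17 ± 0.055 SE, edgeR adjusted p = 0.047). Utp20 was highest in NFL 3 and its groups did not overlap, whereas for Rrp12 control 2 lay just above NFL 1.

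Wdr43, another UtpA protein and the small subunit gene with the most counts, had 325, 324 and 335 CPM in the control libraries and 337, 350.3 and 359.7 CPM in the NFL libraries, with no overlap but an edgeR adjusted p just above the threshold (log2 fold change 0.088 ± 0.031 SE, edgeR adjusted p = 0.0708). The remaining 10 small subunit genes had log2 fold changes from 0.013 to 0.095 and did not pass the test. They comprised the UtpA proteins Wdr75 (0.061) and Heatr1 (0.029), the U3-associated Imp4 (0.063), the methyltransferase Emg1 (0.013), Nop14 (0.025) and its partner Noc4l (0.031), the late factors Bysl (0.074), Ltv1 (0.058) and Tsr1 (0.095), and the helicase Ddx10 (0.050). Among these 10, Ddx10 was the gene whose NFL libraries all lay above the controls. Tsr1, Bysl and Emg1 share 1240, 361 and 334 exonic bases with Srr, Ccnd3 and Lpcat3 on the opposite strand, and whether the counting used strand is not given in the sources used here.

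Large subunit assembly included 15 genes, of which 6 rose and 14 had a higher mean, with a median log2 fold change of 0.094. Mrto4, which holds the place of a stalk protein on the growing subunit, had 83.8, 85.0 and 90.9 CPM in the control libraries and 90.0, 98.4 and 104 CPM in the NFL libraries (log2 fold change 0.17 ± 0.047 SE, edgeR adjusted p = 0.0165). Grwd1, a chaperone of a ribosomal protein, had 79.0, 80.3 and 83.3 CPM in the control libraries and 92.4, 89.9 and 88.9 CPM in the NFL libraries (log2 fold change 0.16 ± 0.045 SE, edgeR adjusted p = 0.0179). The groups of Grwd1 did not overlap, whereas control 3 of Mrto4 lay just above NFL 1. Nip7, which binds pre-ribosomal RNA, had 119, 118 and 126 CPM in the control libraries and 134, 128 and 135 CPM in the NFL libraries (log2 fold change 0.13 ± 0.039 SE, edgeR adjusted p = 0.0301). Gnl3, which encodes nucleostemin, a GTP-binding protein of the nucleolus, had 194, 191 and 208 CPM in the control libraries and 213, 218 and 219 CPM in the NFL libraries (log2 fold change 0.13 ± 0.034 SE, edgeR adjusted p = 0.0129). All 3 NFL libraries lay above the controls for both genes. Wdr12 belongs with Pes1 and Bop1 to the PeBoW complex, which is needed to mature the large subunit RNA, and it had 169, 171 and 171 CPM in the control libraries and 179.9, 185 and 189.8 CPM in the NFL libraries (log2 fold change 0.12 ± 0.034 SE, edgeR adjusted p = 0.0255). Ddx18, an RNA helicase, had 200.5, 189 and 191 CPM in the control libraries and 201, 213 and 215 CPM in the NFL libraries (log2 fold change 0.12 ± 0.035 SE, edgeR adjusted p = 0.0279). Neither had overlapping groups, and NFL 1 of Ddx18 lay within 1 CPM of control 1. Loci that share a stretch nearly identical to Wdr12 held 105% as many counts as Wdr12, most of them in Tmod3 and Ppip5k1. These genes share only 206 and 208 bases with Wdr12, and the counts are those of whole genes. The level of Wdr12 is thus uncertain to an extent that was not measured. Gnl3 shares 15 exonic bases with Pbrm1 on the opposite strand.

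The 2 partners of Wdr12 did not pass the test, with log2 fold changes of 0.094 for Pes1 and 0.074 for Bop1, and whether they differed from Wdr12 was not tested. Nop16 had a log2 fold change of 0.14 with an edgeR adjusted p of 0.061, and Nop2, a methyltransferase of the large subunit RNA, 0.087 with 0.0983. With Wdr43, these were the 3 genes with an adjusted p between 0.05 and 0.1, and the genes just under the threshold were Rrp12 (0.047) and Dkc1 (0.0464) in the same edgeR fit. Noc2l, the large subunit gene with the most counts, had 247, 246 and 241 CPM in the control libraries and 247, 260.3 and 247 CPM in the NFL libraries (log2 fold change 0.040 ± 0.032 SE, edgeR adjusted p = 0.559), with overlapping groups. The others were Noc3l (0.090), Rrs1 (0.084), Ppan (0.049) and Rrp1b (-0.00091), none of which passed the test. Rrp1b and Fbl had the log2 fold changes nearest to 0 of the 50, and the sign of each turned under other settings.

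Summed over the 50 genes, the level was 14318, 13972 and 14334 CPM in controls 1, 2 and 3 and 15103, 15394 and 15516 CPM in NFL 1, 2 and 3. The mean was 14208 ± 204 CPM in the control and 15338 ± 212 CPM in the NFL libraries (SD, n = 3 each), a difference of 7.95% with no overlap. As shares of all counts, with no TMM scaling, the same genes took 1.41% to 1.44% of the control and 1.50% to 1.54% of the NFL libraries. Without Ncl and Npm1, the pair with the most counts, the difference was 6.39%. By role it was 10.5% for the scaffold and chaperones, 7.31% for the snoRNA particle proteins, 6.70% for the large subunit factors and 5.58% for the small subunit factors. The groups did not overlap in any of these 4 roles, whereas for the polymerase I factors, at 1.43%, they overlapped.

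**Figure D3:**
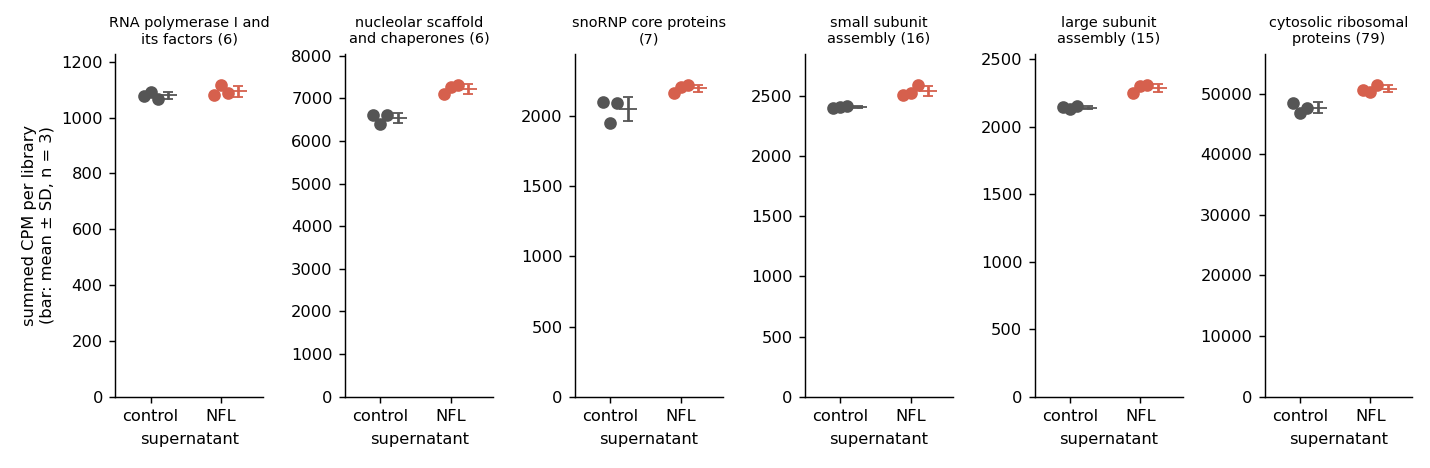
Summed CPM of each role and of the 79 cytosolic ribosomal protein genes (vertical axes from 0, one panel per set, number of genes in parentheses) in each of 3 control and 3 NFL libraries, with the mean ± SD beside the points. The NFL points lie above the control points in every panel but that of RNA polymerase I, where they overlap.

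Several of the 50 genes carry snoRNA genes within them, so that splicing of their transcripts can release these guides. Annotated snoRNA genes lay within Ncl, Nop56, Nop58, Dkc1, Wdr43, Tsr1, Ppan and Gnl3, which are 16% of the 50, beside 1.92% of 11194 protein-coding genes tested. Of these 8 hosts, 5 rose and the median log2 fold change was 0.10, beside 17 rises among the 42 others with a median of 0.092. Over all 215 protein-coding hosts tested, a set that includes the 8, 42 rose, beside 3.47% of all genes tested. The snoRNAs themselves, which lack a poly(A) tail, were not analysed here.

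A wider list of ribosome assembly genes that holds none of the 50 was read in the same fit. Of 131 genes listed, 126 were tested, 20 rose, 0 fell and 114 had a higher mean, with a median log2 fold change of 0.077. The share that rose was 15.9% here, beside 44% of the 50 genes and 3.47% of all genes tested. At an unadjusted p under 0.05 edgeR counted 53 higher and 0 lower, DESeq2 called 15 higher and 0 lower, and limma-voom 20 higher and 0 lower. In the fit with offsets for GC content and length 1 of them was called lower. The 20 rises fell to 13 when libraries were scaled by their totals alone, to 12 without control 1, to 13 without NFL 2 and to 7 without NFL 3.

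Among other polymerase I factors, 1 of 12 rose, Taf1d, a part of the selectivity factor that places the polymerase (log2 fold change 0.12 ± 0.038 SE, edgeR adjusted p = 0.0359). Among other snoRNA particle factors 0 of 10 rose in edgeR, where 3 were higher at an unadjusted p under 0.05, and DESeq2 and limma-voom called 0. Among other small subunit factors 7 of 41 rose, with a median of 0.089, and the largest changes were those of Pno1 (log2 fold change 0.21 ± 0.039 SE, edgeR adjusted p = 1.93e-04), Bud23, a methyltransferase of the small subunit RNA (log2 fold change 0.19 ± 0.053 SE, edgeR adjusted p = 0.0161), and Nol7 (log2 fold change 0.18 ± 0.039 SE, edgeR adjusted p = 0.00189). Among other large subunit factors 10 of 49 rose, with a median of 0.090, led by Rrp15 (log2 fold change 0.21 ± 0.061 SE, edgeR adjusted p = 0.0245), Rsl1d1 (log2 fold change 0.20 ± 0.032 SE, edgeR adjusted p = 1.91e-05) and Wdr74 (log2 fold change 0.19 ± 0.049 SE, edgeR adjusted p = 0.00922). The share of rises was thus larger among the subunit factors than among the polymerase I and snoRNA particle factors outside the 50, and this difference was not tested.

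The ribosomal proteins themselves, which the assembly factors place on the RNA, leaned the same way. Of 79 cytosolic ribosomal protein genes 44 rose, 0 fell and 78 had a higher mean, with a median log2 fold change of 0.10. At an unadjusted p under 0.05 edgeR counted 60 higher and 0 lower, DESeq2 called 34 and 0, and limma-voom 48 and 0. Their summed level was 47643 ± 884 CPM in the control and 50781 ± 571 CPM in the NFL libraries (mean ± SD, n = 3 each), a difference of 6.59%. The largest changes among those past the threshold were those of Rps26 (log2 fold change 0.21 ± 0.036 SE, edgeR adjusted p = 5.78e-05), Rps9 (log2 fold change 0.18 ± 0.028 SE, edgeR adjusted p = 8.92e-06) and Rpl39 (log2 fold change 0.18 ± 0.035 SE, edgeR adjusted p = 3.55e-04). Ribosomal protein genes have many nearly identical pseudogenes, and how reads were divided among them is not given in the sources used here, so single values are uncertain.

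Myc and the genes of its partner network did not lean upward. Of 11 such genes 0 rose and 2 fell, beside 3.53% of all genes tested that fell, and 10 had a lower mean, with a median log2 fold change of -0.058. The list holds Myc and Mycn together with antagonists of Myc, so its median has no single meaning for Myc activity, which was not tested. Of the 11, 0 were higher and 3 lower at an unadjusted p under 0.05 in edgeR, beside 1342 of the 14082 genes tested that were lower. DESeq2 and limma-voom called 0 of them higher. Myc itself stood at 111 ± 3.71 CPM in the control and 106 ± 0.680 CPM in the NFL libraries (mean ± SD, n = 3 each, log2 fold change -0.063 ± 0.041 SE, edgeR adjusted p = 0.434). Mycn stood at 90.0 ± 3.30 and 82.2 ± 0.521 CPM (log2 fold change -0.13 ± 0.045 SE, edgeR adjusted p = 0.0694), with all 3 NFL libraries below the controls. The 2 genes that fell encode antagonists of Myc that compete for Max, Mxd4 at 29.9 ± 0.574 and 20.8 ± 2.04 CPM (log2 fold change -0.53 ± 0.079 SE, edgeR adjusted p = 3.56e-06) and Mxi1 at 35.5 ± 1.04 and 30.6 ± 0.986 CPM (log2 fold change -0.21 ± 0.068 SE, edgeR adjusted p = 0.0469). DESeq2 and limma-voom each called 1 of the 11 genes lower.

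**Figure D4:**
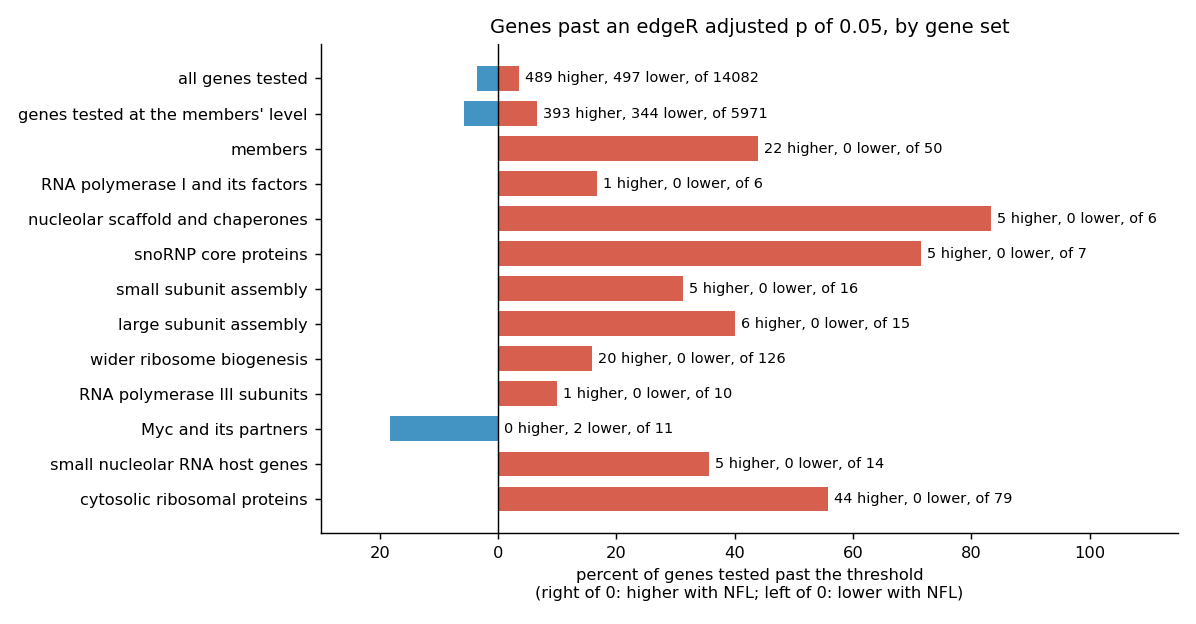
Percent of the tested genes of each set (rows) that passed an edgeR adjusted p of 0.05, higher with NFL to the right of 0 and lower to the left, with the numbers of genes beside the bars. The row named members is the 50 genes, and the row of genes at the members' level holds the 5971 genes from 35.8 to 3252 CPM. Rises outnumber falls in every set of ribosome genes drawn here, and the set of Myc and its partners shows 2 falls and 0 rises.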

How the data were processed

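Per the labels, poly(A)-selected libraries of mouse T cells were sequenced on an Illumina instrument. The authors deposited raw read counts, whole numbers per gene with 1 column per library, no normalization and no pooling. The submitters' processing notes name R 4.2.1, limma 3.54.2 and GRCm39. The aligner, counting program, annotation release and strand setting are not given in the sources used here. Of 55401 identifiers, 54349 were identical, version included, to GENCODE M21 (GRCm38), the source of coordinates and exon lengths, and 55141 had a symbol. Every column matched a sample (0 without one).

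In R 4.3.3, genes were kept by filterByExpr of edgeR 4.0.16 (minimum count 10, minimum total 15), TMM factors were computed, and NFL minus control was tested two-sided by glmQLFit with glmQLFTest, adjusted by Benjamini-Hochberg over 14082 genes and held against 0.05. At a common dispersion of 0.00121, libraries of 1 group varied by 3.48% (biological coefficient of variation). An exact permutation test of 3 against 3 libraries cannot go below p = 0.1. DESeq2 1.42.0 and limma-voom (limma 3.58.1) were alternatives, and offsets for GC content and length or for abundance were added after seeing the data. On simulated counts of 14082 genes, edgeR recovered 77 of 100 genes changed by 0.5 on the log2 scale and 100 of 100 changed by 1, with 5 false calls. The changed genes could have far fewer counts than the 50 genes, and all genes were simulated with the same dispersion. Changes as small as those of the 50 genes (-0.056 to 0.20) were not simulated, so recovery of genes like these at their size is not known. Deviations from the group means of equally numbered libraries correlated at 0.0147, 0.00972 and 0.00534, so the numbers were not taken to pair the libraries. Nearly identical loci were sought with blastn 2.17.0.

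The 50 genes, their roles and the other lists were chosen with earlier results of these data known. Values in every library are given for the 20 genes past the threshold with the largest log2 fold change and, in each role, for the gene of the highest mean CPM and that of the largest change. From other lists at most 3 genes past the threshold are named, and Myc and Mycn. The value of a withheld marker gene is not reported here.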

Additional observations from a re-analysis of the deposited data

How the results depend on the processing

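The median log2 fold change of the 50 genes stayed between 0.081 and 0.112 and 45 to 49 of them had a higher mean over the 16 alternatives, and 0 of them were called lower in any. The count called higher, 22 as reported (beside 3.47% of all genes tested), was 22 with DESeq2 size factors (3.39%), with at least 10 counts in every library (3.81%) and with GC and length offsets (4.13%), 21 with limma-voom (3.66%), 20 with thinned counts (3.42%), 19 with no filter (1.46%), 17 with abundance offsets (2.99%) and 16 with DESeq2 (2.65%). At a threshold of 0.01 it was 6, and the share over all genes at that threshold is not given here, so nothing is read from the 6. It was 14 with library size alone (2.64%), and 7 to 19 when each library was left out in turn (beside 1.74% where it was 7 and 2.73% where it was 19). Leaving out libraries also gave 508 to 966 calls over all genes, 250 to 514 higher and 258 to 452 lower, and 7 to 22 of the wider list higher. Of that list 13 were higher with library size alone, and 1 was lower with GC and length offsets, which gave 580 higher and 366 lower over all genes. With the replicate block, 22 of the 50 genes (beside 3.81%) and 1049 of all genes were called, and no call among the 50 changed. In the data, 6 of 6 libraries correlated best with the library of their own number. These 6 are read from the same correlations and are not independent. The correlations of equal numbers were near 0 (0.0147, 0.00972 and 0.00534), so no pairing is drawn from them.

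Genes with a difference near 0 changed sign. With single libraries left out, the log2 fold change ran from -0.0633 to 0.0168 for Polr1c (positive without NFL replicate 2), from -0.0430 to 0.0441 for Fbl (negative without control replicate 2, and -0.0190 without NFL replicate 3), from -0.00106 (without NFL replicate 3) to 0.0530 for Nop14, and from -0.0254 to 0.0209 for Rrp1b (positive without control replicates 2 or 3 or NFL replicate 2). Library size alone gave -0.0127 for Fbl and -0.000876 for Emg1, limma-voom -0.00157 for Fbl and 0.00155 for Rrp1b, thinned counts 0.00158 for Rrp1b, GC and length offsets 0.0396 for Rrp1b and abundance offsets -0.00841 for Fbl. The cause was not tested. Among single values of the 50 genes, 692 kept their direction and side of the threshold, 86 lost the threshold, 8 gained it and 14 reversed.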

Other observations

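Of the long non-coding genes that host snoRNAs in their introns, 14 of 20 listed were tested, 5 rose, 0 fell and 14 had a higher mean, with a median log2 fold change of 0.15. The largest were Snhg6, at 13.5 ± 1.86 CPM in the control and 17.2 ± 1.98 CPM in the NFL libraries (log2 fold change 0.34 ± 0.10 SE, edgeR adjusted p = 0.0325), Zfas1 (0.26 ± 0.061 SE, edgeR adjusted p = 0.00371) and Snhg1 (0.20 ± 0.053 SE, edgeR adjusted p = 0.00966). At an unadjusted p under 0.05 edgeR counted 7 of the 14 as higher and 0 as lower, DESeq2 called 3 higher and 0 lower, and limma-voom 5 and 0. Of 14 tested genes of the exosome and of other trimming of pre-ribosomal RNA, which are part of the wider list above, 2 rose, with a median of 0.044. They were Exosc2 (0.15 ± 0.040 SE, edgeR adjusted p = 0.0164) and the nuclease Dis3 (0.12 ± 0.031 SE, edgeR adjusted p = 0.0113). Of RNA polymerase III, which makes the smallest ribosomal RNA of the large subunit, 1 of 10 subunit genes rose, Polr3f (0.15 ± 0.045 SE, edgeR adjusted p = 0.0366), with a median of 0.081, and DESeq2 called 0 of them. Over all genes tested 3.47% rose.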
